A study of Saccharomyces cerevisiae with 6 samples.

Results

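The 5′ segment of the 25S gene, the first of 3 equal segments and the stretch of the 35S rRNA gene that RNA polymerase I (Pol I) enters on leaving the spacer ITS2, comprised 1132 of the 6858 positions measured and 1132 of the 3396 positions of 25S. Its members were chosen by place alone: positions 3252 to 4383, counted from 1 at the transcription start of the 35S gene, which are nucleotides 1 to 1132 of 25S. In the R64 assembly they lie at chrXII:463187-464318 on the minus strand, in *RDN25-2*, a noncoding rRNA gene contained in *RDN37-2*. NET-Seq had been performed on 3 WT and 3 *rpa190-F1205H* libraries of *Saccharomyces cerevisiae*, from triplicate cultures of each strain grown at 30 °C. The mutant allele replaced a phenylalanine with histidine in the trigger loop of Rpa190, the largest Pol I subunit, and haploid cells carried it on a pRS315 plasmid in place of the chromosomal gene (*rpa190Δ::HIS3*). The study asked how this change alters elongation by Pol I. WT was given in the labels as wild type and in the methods as the appropriate parent strain. Rpa135, the second largest subunit, carried a hemagglutinin tag at its C terminus in the mutant strain, and Pol I was immunoprecipitated from both strains.

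Pol I makes a single long precursor from each active rDNA repeat, from which the 18S, 5.8S, and 25S rRNAs are cut. 25S is the main RNA of the large ribosomal subunit, and its 5′ part folds with 5.8S rRNA, is bound by early assembly factors, and is modified by small nucleolar ribonucleoproteins. The trigger loop is a mobile element of the active site that closes over the incoming nucleotide and opens for translocation. NET-Seq sequences the 3′ ends of RNA purified with the polymerase, so a read from nascent RNA marks the last nucleotide incorporated.

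The values were normalized reads (RPM), scaled by the authors to 1000000 reads per library over positions 1 to 6739. A value is thus a share of a library, and neither the amount of engaged polymerase nor the difference between more polymerases and slower ones can be read from it. The study describes mature rRNA as a contaminant of reads in the gene regions, and nascent and mature ends cannot be told apart here. A position is called occupied below by its reads alone. Depth was high: each WT library had 385487 to 593625 recovered reads in the 5′ segment and each mutant library 586147 to 694289, the median position held 255 to 459 reads, and no member was at 0 in any library. The spacers held 3.81 to 4.45% of the reads in WT and 12.1 to 12.3% in the mutant, so each comparison across strains below also depends on the scaling. Within a strain, libraries differed by more than sampling noise over these positions (chi-square per degree of freedom 2.72 to 5.79).

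The sequence across the 5′ edge is shown because the strains differed there over a whole stretch. In it, the end of ITS2 is in lower case and the start of 25S in capitals (positions 3222 to 3301, chrXII:464269-464348, read from the deposited base at each position and written as RNA, 5′ to 3′).
ITS2 to 25S: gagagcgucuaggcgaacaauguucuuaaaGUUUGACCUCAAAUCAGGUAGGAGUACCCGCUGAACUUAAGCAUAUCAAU
The 6 positions with the largest rises in the mutant follow, each as 30 nucleotides in which the last 10 incorporated, about the length of the RNA:DNA hybrid, are in capitals, so that the final capital is the RNA 3′ end.
Position 4100: agggugaagcCAGAGGAAACucugguggag
Position 3901: ugccgcccguCUUGAAACACggaccaagga
Position 3253: gcgaacaaugUUCUUAAAGUuugaccucaa
Position 4101: gggugaagccAGAGGAAACUcugguggagg
Position 3905: gcccgucuugAAACACGGACcaaggagucu
Position 3945: cgaguguuugGGUGUAAAACccauacgcgu
The 6 positions with the largest falls are written in the same way.
Position 3498: uguggcgaggAGUGCGGUUCuuuguaaagu
Position 3289: uaggaguaccCGCUGAACUUaagcauauca
Position 3439: uggggccguuCCUUGUCUAUguuccuugga
Position 4114: ggaaacucugGUGGAGGCUCguagcgguuc
Position 3461: uccuuggaacAGGACGUCAUagagggugag
Position 3499: guggcgaggaGUGCGGUUCUuuguaaagug
Last come the most occupied position of the mutant and the one that ranked second in both strains.
Position 3728: ugcuccuuguGGGUAGGGGAaucucgcauu
Position 4349: aauugaacguGGACAUUUGAaugaagagcu

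As a whole, the 5′ segment held nearly the same share of the reads in both strains. The mean over its positions was 174, 168, and 170 RPM in the WT libraries, against 164, 164, and 166 RPM in the mutant. All mutant libraries lay just below all WT libraries, with strain means of 170 ± 2.94 and 165 ± 1.24 RPM (SD, n = 3), a log2 ratio of -0.05 (p = 0.1 by a two-sided exact permutation test, which cannot go lower with 3 libraries per strain). The median over positions was 128 RPM in both strains (p = 1, exact permutation test). In percent of all reads of the 35S gene, the 5′ segment held 19.3 ± 0.334% in WT, against 18.7 ± 0.142% in the mutant. The scaling sets this result: after rescaling to an equal spacer total in each library the log2 ratio of the means was -1.61, and with the same median over positions it was -0.22.

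Within the 25S gene, ratios taken inside each library do not depend on that scaling. As deposited, the mean of the 3′ segment fell from 192 ± 1.91 to 152 ± 1.06 RPM, a log2 ratio of -0.34, and that of the central segment from 194 ± 1.95 to 176 ± 0.844 RPM, a log2 ratio of -0.14. The log2 ratio of the 5′ to the 3′ segment was -0.15, -0.18, and -0.19 in the WT libraries and 0.10, 0.11, and 0.14 in the mutant libraries. The 5′ segment was thus the less occupied end in every WT library and the more occupied end in every mutant library, a difference of 0.29 (exact permutation p = 0.1, 0.125 after Benjamini-Hochberg adjustment over 5 such ratios). Against the central segment the difference was smaller: -0.19 ± 0.03 in WT and -0.10 ± 0.01 in the mutant, with no overlap (exact permutation p = 0.1, adjusted 0.125). That comparison changed direction, to -0.10, when medians over positions replaced means. Against the 18S gene, whose mean was 165 RPM in both strains, the log2 ratio overlapped between strains, at 0.05 ± 0.04 in WT and 0.00 ± 0.02 in the mutant (exact permutation p = 0.2, adjusted 0.2). Set against the spacers, the 5′ segment was 2.63 ± 0.14 log2 units higher in WT and 1.02 ± 0.004 higher in the mutant (exact permutation p = 0.1, adjusted 0.125).

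**Figure D1:**
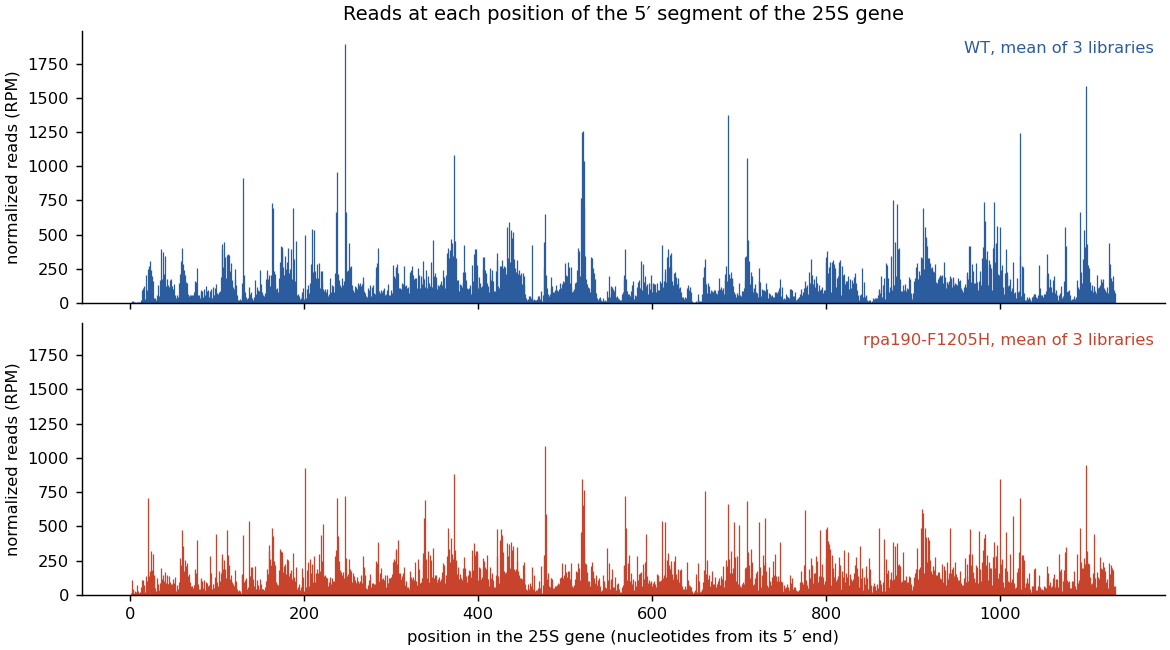
Mean normalized reads (RPM, 3 libraries) at each of the 1132 positions, by distance in nucleotides from the 5′ end of the 25S gene, with WT above and *rpa190-F1205H* below on the same linear axis. The highest WT position, at nucleotide 247, reached 1892 RPM and the highest mutant position, at nucleotide 477, reached 1088 RPM.

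At single positions the strains differed in both directions, although the mean hardly moved. Of the 1132 positions, 360 were higher and 434 lower in the mutant by limma on log2(RPM + 1), with Benjamini-Hochberg adjusted p below 0.05 over 6843 positions, and 338 were not called. The share called higher, 31.8%, lay below the 40.6% over all tested positions, and the share called lower, 38.3%, lay above the 33.9% over all. The values of the strains did not overlap at 848 positions, 74.9%, close to the 78.1% over all tested positions. The median log2 fold change was -0.11, against 0.05 over all positions tested. By more than 1 log2 unit, 138 positions (12.2%) were higher and 34 (3.00%) lower, where 23.5% and 3.01% of all tested positions were. In the central segment 343 positions were higher and 462 lower, nearly the balance seen in the 5′ segment, whereas in the 3′ segment 207 were higher and 634 lower.

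The split between higher and lower calls follows the scaling. With the same median over positions in every library, 287 positions were higher and 576 lower, where 35.4% and 43.8% of all tested positions were. With the same spacer total, 42 were higher and 1035 lower, where 11.6% and 78.6% of all tested positions were. The 42 are those that gained reads even relative to the spacers, in which the mutant gained most, and they are described further on.

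As deposited, positions of the 5′ segment at low levels were more often higher in the mutant than its positions at high levels, which were more often lower. When the members were divided by their mean over the 6 libraries into 4 groups of 283, the lowest group, 5.09 to 82.3 RPM, had 42% of its positions higher and 23.3% lower. Over all tested positions the shares were 40.6% and 33.9%, so its share of higher positions was near that of the whole gene. Other parts were not divided by level. In the highest group, 214 to 1306 RPM, 27.2% were higher and 53.4% lower, with a median log2 fold change of -0.34. The reads were accordingly less concentrated in the mutant. The 11 highest positions of each library, 1% of the members, held 6.88, 6.71, and 7.64% of the reads of the 5′ segment in WT and 4.66, 4.95, and 5.34% in the mutant. Every mutant library lay below every WT library, with means of 7.08 ± 0.50% and 4.98 ± 0.34% (SD, n = 3, exact permutation p = 0.1). The lowest position of a WT library held 0.972 to 3.19 RPM and that of a mutant library 5.71 to 9.43 RPM, so the range narrowed from both ends. A narrowing of the top 1% was also measured in the central segment (8.30 to 4.88%) and the 3′ segment (6.94 to 5.24%).

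The order of the positions was kept closely within a strain and less so between strains. Across the 1132 positions, the Spearman coefficient was 0.983 to 0.986 between WT libraries, 0.981 to 0.989 between mutant libraries, and 0.742 to 0.774 between a WT and a mutant library. These coefficients describe positions of the same libraries and were not tested. The 11 highest positions were identical in each pair of WT libraries, while pairs of mutant libraries shared 8 or 9, and the strain medians shared 6.

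Over stretches of 100 nucleotides the differences were modest, since gains and losses of neighbors offset each other. Of the 11 whole windows of the 5′ segment, 2 were higher and 3 lower in the mutant (limma on log2 of the window mean, adjusted over 69 windows), where 34.8% of all windows of the 35S gene were higher and 37.7% lower. The largest rise was in the window of nucleotides 701 to 800, which held 122, 119, and 122 RPM per position in WT and 149, 152, and 156 RPM in the mutant. This was the second least occupied window in both strains, and its libraries were separate, with a log2 fold change of 0.33 (standard error 0.04, limma adjusted p = 8.9e-06). Within it, 45 positions were higher and 22 lower, where 40.6% and 33.9% of all tested positions were. The window before it, 601 to 700, also rose, by 0.13 (limma adjusted p = 0.010).

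The largest fall was in the window of nucleotides 101 to 200, with 189, 190, and 193 RPM in WT and 152, 158, and 158 RPM in the mutant, a log2 fold change of -0.29 (standard error 0.03, limma adjusted p = 2.3e-05). Its positions divided into 24 higher and 54 lower, where 40.6% and 33.9% of all tested positions were. The window of nucleotides 901 to 1000 was the most occupied of the 11 in both strains and fell from 250 ± 2.74 to 219 ± 2.73 RPM (log2 fold change -0.19, limma adjusted p = 0.00038), with 13 positions higher and 56 lower. The third fall, in nucleotides 501 to 600, was small (172 ± 7.12 against 159 ± 1.05 RPM, -0.11, limma adjusted p = 0.027), and it was not called without WT replicate 1 or without any 1 of the mutant libraries (limma adjusted p = 0.060 to 0.093). By the median over the positions of a window in place of the mean, the windows 601 to 700 and 501 to 600 were not called (limma adjusted p = 0.61 and 0.64), the window 301 to 400 was lower (-0.18, limma adjusted p = 0.0063), and the window 1001 to 1100, at -0.07 by its mean, was higher (0.31, limma adjusted p = 6.6e-06). The window calls depend on the scaling: with the same spacer total none was higher and all 11 were lower, and with the same median 1 was higher and 8 were lower. The last 32 positions, which fill no window, had 138 ± 11.8 and 150 ± 7.16 RPM and overlapped between strains (exact permutation p = 0.3).

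**Figure D2:**
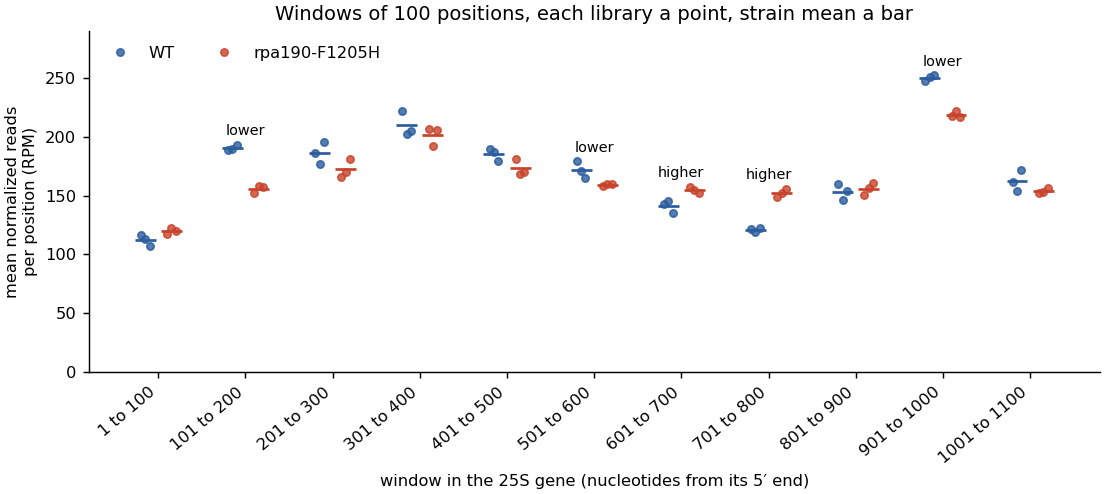
Mean normalized reads per position (RPM, linear axis from 0) in the 11 windows of 100 nucleotides along the 5′ segment of 25S, with each library as a point and each strain's mean as a bar. Windows with a limma adjusted p below 0.05 are marked higher or lower in the mutant. The window 701 to 800 went from 121 to 152 RPM and the window 101 to 200 from 191 to 156 RPM.

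A marked difference lay at the 5′ edge of 25S, where ITS2 ends. In WT, the last 50 positions of ITS2 held 15.4, 17.6, and 17.6 RPM per position and the first 50 of 25S held 123, 115, and 111 RPM. In the mutant, the same stretches held 79.1, 78.3, and 82.4 RPM and 101, 109, and 105 RPM. WT libraries therefore stepped up by 2.79 ± 0.19 log2 units on entry to the gene, whereas mutant libraries stepped up by 0.40 ± 0.07 (difference -2.39, exact permutation p = 0.1, adjusted 0.125). With 20 positions on each side, the steps were 1.48 ± 0.41 and 0.00 ± 0.11, a difference of -1.48. How the difference divides between the sides follows the scaling: as deposited, the log2 ratio of the strains was 2.24 on the spacer side and -0.15 on the gene side, and with the same spacer total it was 0.68 and -1.72. As deposited, blocks of 5 in the 50 positions before 18S and 5.8S had log2 ratios of 0.30 to 4.61 and 0.98 to 3.21. Over nucleotides 11 to 50 of those genes the ratios were 0.09 and -0.50. A larger gain before the gene than over these nucleotides was thus not particular to 25S. The step itself was not computed there.

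The boundary in the read profile did not fall on the first nucleotide of the gene. The first 10 nucleotides of 25S held 6.35, 8.04, and 7.00 RPM in WT, lower than the last 10 of ITS2, with 12.8, 13.4, and 16.4 RPM. In the mutant they held 34.99, 32.5, and 35.7 RPM, close to the last 10 of ITS2, with 37.4, 39.8, and 38.1 RPM. The log2 ratio of the strains was thus 2.27 just inside the gene (exact permutation p = 0.1) and 1.44 just outside it, or 0.71 and -0.13 with the same spacer total. Taken as a whole, nucleotides 11 to 50 went the other way, with 144 ± 8.14 RPM in WT and 123 ± 5.06 RPM in the mutant (log2 ratio -0.23, exact permutation p = 0.1). The change of direction was not at nucleotide 11. In blocks of 5, nucleotides 11 to 15, 16 to 20, and 26 to 30 had log2 ratios of 0.28, 0.54, and 1.17, and the other blocks up to nucleotide 50 were lower. The first 20 nucleotides together held 51.3 ± 9.62 RPM in WT and 83.7 ± 2.21 RPM in the mutant. Called positions formed a run over nucleotides 1 to 13, all higher in the mutant, at 8.46, 8.84, and 8.37 RPM in WT and 33.8, 31.6, and 35.4 RPM in the mutant. Only the run at nucleotides 844 to 856, described further on, was as long in that direction. A little downstream, nucleotides 32 to 44 formed a run of 13 lower positions, at 197 ± 7.09 RPM in WT and 107 ± 9.41 RPM in the mutant. In the edge sequence printed above, the higher run is the stretch guuugaccucaaa and the lower run the stretch ugaacuuaagcau.

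A low start was also measured at the other mature rRNAs of the precursor. At the first 10 nucleotides of 5.8S the values were 4.28 ± 0.592 RPM in WT and 38.0 ± 2.35 RPM in the mutant, followed by 300 ± 12.4 and 213 ± 8.51 RPM over nucleotides 11 to 50. In 18S they were 26.8 ± 3.26 and 67.5 ± 3.55 RPM, followed by 161 ± 2.13 and 171 ± 7.56 RPM. At all 3 genes the mutant exceeded WT more over the first 10 nucleotides than over the next 40, by the values given, and no test was made of this pattern, which was chosen after the values were seen.

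**Figure D3:**
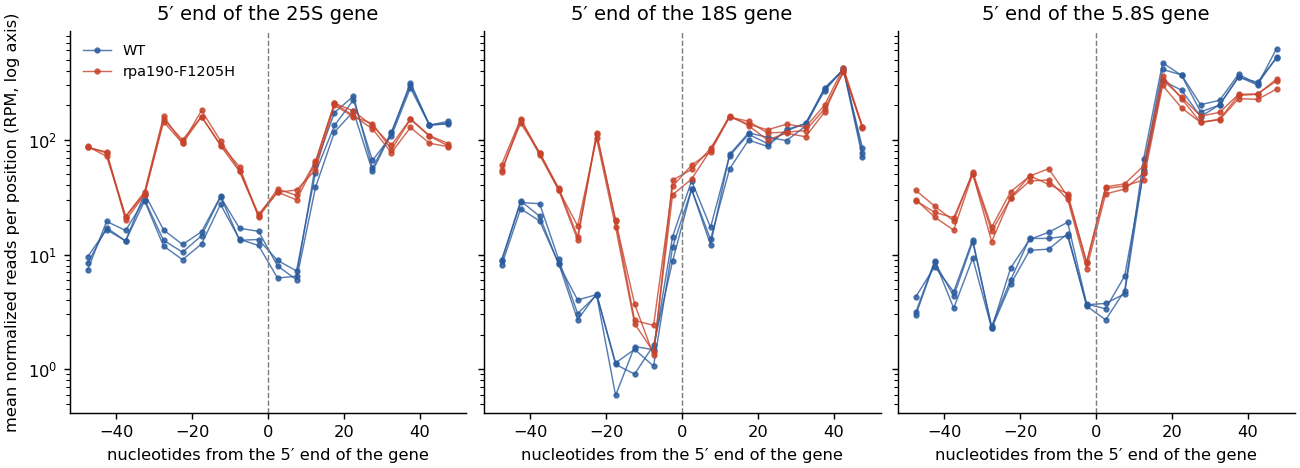
Mean normalized reads per position (RPM, log axis) in blocks of 5 nucleotides from 50 before to 50 after the 5′ ends of the 25S, 18S, and 5.8S genes, with a line for each library. At 25S the WT lines stay between 6.02 and 8.88 RPM over the first 10 nucleotides and meet the mutant lines at nucleotides 11 to 15 (50.1 ± 10.98 RPM in WT and 60.8 ± 5.56 RPM in the mutant).

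The Northern probe for 25S used in the study is complementary to nucleotides 68 to 87, in the first window (positions 3319 to 3338, chrXII:464232-464251, a single match in the 35S gene), and is shown with the RNA it pairs with.
Probe: ACTAAGGCAATCCCGGTTGG
Target: ccaaccgggauugccuuagu
Over these 20 nucleotides the mean was 93.1, 86.2, and 86.0 RPM in WT and 107, 105, and 104 RPM in the mutant. The mutant libraries lay above the WT libraries, with a log2 ratio of 0.25 (exact permutation p = 0.1).

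The largest rises at single positions were taken from 298 positions that were higher at an adjusted p below 0.05, with a mean of at least 50 RPM and no overlap between strains. In WT, 5 of the 6 had a mean below 50 RPM and so passed that minimum only through the mutant. Position 4100, nucleotide 849, held 20.6, 21.7, and 20.4 RPM in WT and 246, 265, and 299 RPM in the mutant, from 44 to 63 reads against 782 to 1101. It moved from rank 1088 of 1132 in WT to rank 172 in the mutant, with a log2 fold change of 3.63 (standard error 0.10, limma adjusted p = 4e-08). Its neighbor, position 4101, held 22.0, 23.2, and 28.8 RPM in WT and 193, 173, and 187 RPM in the mutant, a log2 fold change of 2.86 (standard error 0.12, limma adjusted p = 1.8e-07). Both lie in a run of 13 higher positions at nucleotides 844 to 856, over which the mean was 28.7 ± 1.66 RPM in WT and 105 ± 6.12 RPM in the mutant.

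Position 3901, nucleotide 650, held 31, 25, and 46 reads in WT and 469, 483, and 572 reads in the mutant, or 12.7 ± 1.98 and 152 ± 4.005 RPM (3.49 on the log2 scale, standard error 0.12, limma adjusted p = 8e-08). Close to it, position 3905 held 9.58, 15.3, and 17.8 RPM in WT and 107, 95.4, and 97.7 RPM in the mutant (2.77, standard error 0.19, limma adjusted p = 3.3e-06). In WT they ranked 1114 and 1105 of the 1132 positions, near the bottom. Position 3253, the second nucleotide of 25S, belongs to the edge described above and held 8.87, 14.3, and 13.9 RPM in WT and 105, 97.7, and 113 RPM in the mutant (3.02, standard error 0.17, limma adjusted p = 8.8e-07). The last of the 6, position 3945 at nucleotide 694, ranked highest of them in the mutant. It held 79.1, 79.9, and 74.8 RPM in WT and 473, 518, and 595 RPM in the mutant, and went from rank 816 to rank 30 (2.74, standard error 0.11, limma adjusted p = 1.4e-07).

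The largest falls were taken from 409 positions under the same conditions. Position 3498, nucleotide 247, was the most occupied of the 5′ segment in WT, at 1775, 1607, and 2293 RPM. In the mutant it held 556, 717, and 891 RPM and ranked 12, a log2 fold change of -1.40 (standard error 0.19, limma adjusted p = 0.00019). The next nucleotide, position 3499, fell with it, from 668 ± 125 to 270 ± 38.5 RPM (-1.30, limma adjusted p = 8.5e-05). Position 3289, nucleotide 38 in the lower run near the 5′ edge, held 374, 339, and 401 RPM in WT and 122, 152, and 149 RPM in the mutant (-1.39, standard error 0.12, limma adjusted p = 1.1e-05). Values at position 3439 were 281, 292, and 385 RPM in WT and 108, 119, and 151 RPM in the mutant (-1.33, limma adjusted p = 9.2e-05). Position 3461 went from 227 ± 16.7 to 91.0 ± 6.37 RPM (-1.31, limma adjusted p = 5.7e-06). Position 4114, only 13 nucleotides downstream of the rise at position 4101, went from 194 ± 26.3 to 77.7 ± 14.8 RPM (-1.32, limma adjusted p = 9.1e-05). With the same spacer total, the 6 falls were -2.96 to -2.86 and the 6 rises 1.19 to 2.10, so which were larger depends on the scaling.

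**Figure D4:**
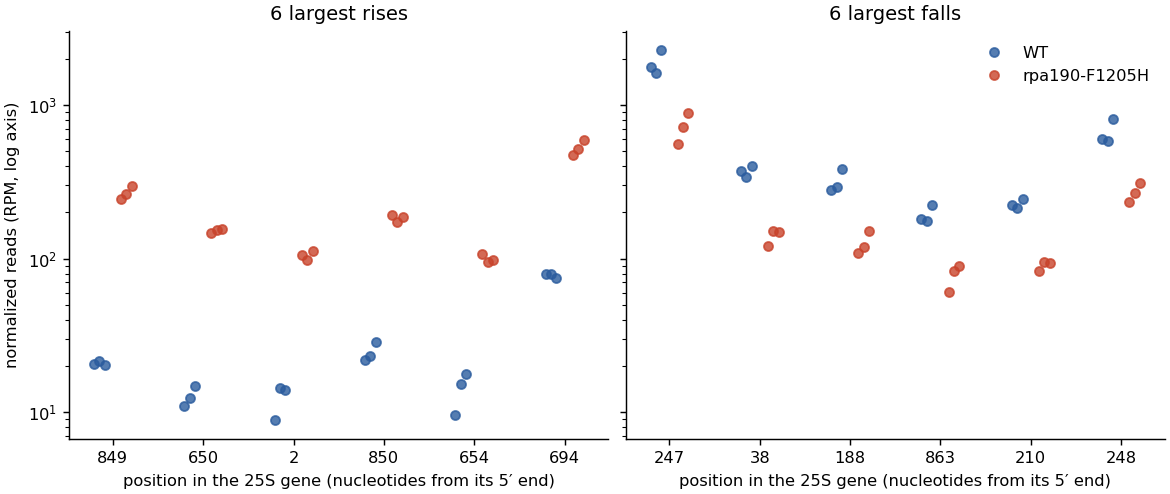
Normalized reads (RPM, log axis) in each library at the 6 positions with the largest rises and the 6 with the largest falls, named by their nucleotide in 25S. At all 12 the points of the strains are separate, from 20.9 to 270 RPM on average at nucleotide 849 and from 1892 to 721 RPM at nucleotide 247.

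Of the most occupied positions, some kept their place and others did not. After position 3498, the highest in WT were position 4349 (1553, 1485, and 1724 RPM), position 3938 (1307, 1307, and 1519 RPM), and the neighbors 3770 (1248 ± 23.5 RPM) and 3771 (1257 ± 48.9 RPM). All fell in the mutant: position 4349 to 951 ± 46.1 RPM (-0.74, limma adjusted p = 0.00015), position 3938 to 662 ± 47.8 RPM (-1.06, limma adjusted p = 2.7e-05), and the neighbors by 0.57 and 0.94 log2 units (limma adjusted p = 0.00071 and 1.9e-05). Position 4349 nevertheless ranked second in both strains. The highest in the mutant was position 3728, nucleotide 477, with 643, 599, and 708 RPM in WT and 917, 1102, and 1244 RPM in the mutant (0.73, standard error 0.13, limma adjusted p = 0.00088). It was followed by position 4349 and then by position 3452, with 427, 525, and 536 RPM in WT and 824, 930, and 1034 RPM in the mutant (0.91, limma adjusted p = 0.00023). Position 4251 also gained, from 558 ± 47.2 to 843 ± 36.1 RPM (0.60, limma adjusted p = 0.00056). The gains at these 3 positions turned to losses of 0.83, 0.66, and 0.96 log2 units when libraries were scaled to the same spacer total. Position 3623 was high in both strains, at 1080 ± 154 RPM in WT and 885 ± 66.3 RPM in the mutant, and was not called (-0.28, limma adjusted p = 0.064).

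Called positions next to each other were grouped into runs. Of all tested positions 40.6% were higher and 33.9% lower, against 31.8% and 38.3% here. Runs were not counted in other parts of the gene, and clustering was not tested. The 360 higher positions formed 148 runs of neighbors, 18 of them of at least 5 positions, and the 434 lower positions formed 150 runs, 23 of them of at least 5. The longest lower run covered 22 positions, nucleotides 977 to 998, at 354, 329, and 370 RPM in WT and 232, 242, and 233 RPM in the mutant, a log2 ratio of -0.58. It ends 2 nucleotides before position 4251, one of the positions that gained. Its sequence, cguaucaguuuuaugagguaaa, lies in the most occupied window of the 5′ segment. In the other direction, nucleotides 539 to 550 formed a run of 12 higher positions, at 46.2 ± 0.517 RPM in WT and 113 ± 3.89 RPM in the mutant.

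Scaled to the same spacer total, 42 positions of the 5′ segment (3.71%) were still higher in the mutant, where 11.6% of all tested positions were. The central segment had 32 (2.83%) and the 3′ segment 12 (1.06%). In 18S the share was 3.28% and in 5.8S 5.13%, so such rises were not particular to the 5′ segment. This scaling lowers the log2 fold changes by a similar amount, so the 6 largest rises are among the 42 by construction. In WT, 24 of the 42 had a mean below 50 RPM. They were spread unevenly: 26 lay in the 4 windows from nucleotide 501 to 900, 4 lay in the first 13 nucleotides, and none lay in the window 901 to 1000. Of the 42, 22 ended in cytosine, the last nucleotide at 200 of the 1132 positions. At 35 the next nucleotide encoded was a pyrimidine, where among the 1132 it was cytosine at 200 and uracil at 290. These features were counted after the values were seen and are given without a test.

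The nucleotide at the RNA 3′ end was not used to choose the members and could be compared over libraries. Reads ending in cytosine made up 15.5, 15.9, and 16.5% of the reads of the 5′ segment in WT and 17.98, 18.3, and 18.5% in the mutant, and reads ending in uracil 24.1, 24.4, and 24.6% and 22.5, 22.0, and 21.2%. Cytosine was thus higher in all mutant libraries and uracil lower (exact permutation p = 0.1 for each, adjusted 0.175 over 7 sequence measures). The shares of adenine, 36.4% in both strains, and guanine, 23.3 and 23.4%, overlapped between the strains (exact permutation p = 1 and 0.9). Together the purines held 59.7 ± 0.723% in WT and 59.8 ± 0.444% in the mutant (exact permutation p = 0.9, adjusted 1). Over the last 10 nucleotides, weighted by reads, purines made up 59.1 ± 0.204% in WT and 61.0 ± 0.191% in the mutant, where the unweighted share over the members is 56.7%. This was higher in every mutant library (exact permutation p = 0.1, adjusted 0.175). The GC content of the same stretch was 47.7 ± 0.297% and 48.5 ± 0.358% (exact permutation p = 0.1, adjusted 0.175).

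The next nucleotide encoded, which the polymerase had yet to add where a read came from nascent RNA, was compared in the same way. Among the 314 positions with adenine next, 70 (22.3%) were higher and 161 (51.3%) lower. Among the 200 with cytosine next, 90 (45%) were higher and 50 (25%) lower. Of all members, 31.8% were higher and 38.3% lower, and of all tested positions of the 35S gene 40.6% and 33.9%. Other parts of the gene were not divided by next nucleotide alone, and this division was not tested. Positions followed by adenine held 34.7 to 35.8% of the reads in WT and 30.0% in every mutant library. Taken with the last nucleotide, the pair with the largest median log2 fold change was cytosine before cytosine (0.63 over 48 positions, 31 higher and 7 lower), followed by cytosine before uracil (0.52 over 58 positions, 35 higher and 11 lower). The lowest median was at uracil before adenine (-0.43 over 62 positions, 11 higher and 37 lower). Cytosine before adenine also lay low (-0.38 over 44 positions, 12 higher and 25 lower), so positions ending in cytosine did not move as 1 group.

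**Figure D5:**
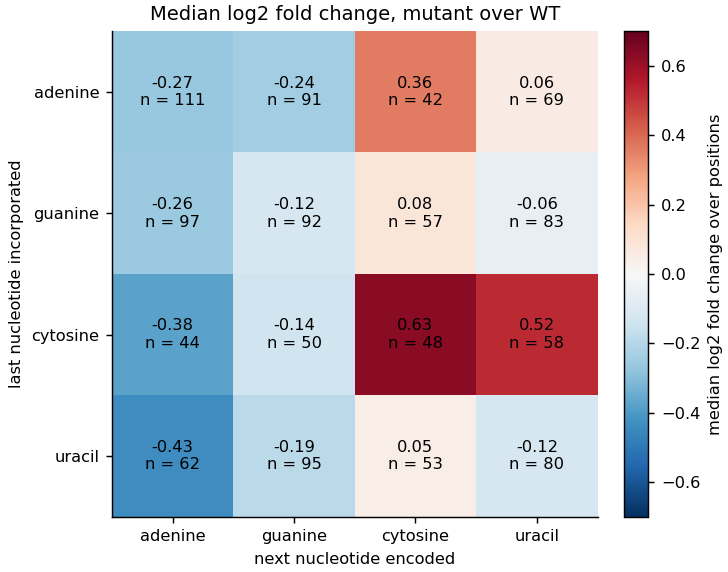
Median log2 fold change (mutant over WT, limma on log2(RPM + 1)) over the positions of the 5′ segment of 25S with each pair of last nucleotide (rows) and next nucleotide (columns), with the number of positions in each cell. The 2 highest cells are cytosine before cytosine (0.63) and cytosine before uracil (0.52), and the lowest is uracil before adenine (-0.43).

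Positions with cytosine before a pyrimidine, 106 in number, held 6.82, 7.00, and 7.27% of the reads of the 5′ segment in WT and 10.2, 10.4, and 10.6% in the mutant. Of these, 66 were higher and 18 lower, and their median log2 fold change exceeded that of the other members by 0.71. The same difference was 0.56 in the central segment, 0.40 in the 3′ segment, 0.66 in 18S, and 0.93 in the spacers, so the pattern was not particular to the 5′ segment. It was chosen after the values were seen and was not tested. The named positions were chosen by their values in these same libraries, so their nucleotides are listed as description and add no separate support. Of the 6 largest rises, 4 ended in cytosine and 2 in uracil, and at 5 of them the next nucleotide was a pyrimidine. Among the 6 largest falls 4 ended in uracil and 2 in cytosine, and at 4 the next nucleotide was a purine. Of the 5 highest positions of the mutant, 4 ended in adenine and all 5 were followed by a purine. The purines among the last 10 nucleotides numbered 4 to 8 at the rises and 2 to 6 at the falls.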

How the data were processed

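NET-Seq reads had been deduplicated with fqtrim, trimmed with cutadapt 1.12, aligned to R64 with STAR 2.7.1a, handled with SAMtools 1.6, and reduced by BEDTools 2.26.0 to 3′-end coverage (versions per the submitters' processing notes). The sources used here do not say to which rDNA copy a read was assigned. The values deposited by the authors are RPM at each position. Their strain means, ratios, and p-values were also deposited and were not used. Division by the smallest nonzero value of a library gave whole reads, to within 0.02, for 99.98% of 41148 values. Intervals from such reads cover counting error only, and none is printed.

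Positions and windows of 100 were compared with limma 3.58.1 (R 4.3.3) on log2(RPM + 1), strain as the only term, with Benjamini-Hochberg adjustment at 0.05 over the 6843 positions or 69 windows not at 0 in all libraries. This replaced the t test of the methods, which was run as an alternative. Single values per library were compared by two-sided exact permutation tests, none of which can pass 0.05 with 3 libraries per strain. Their Benjamini-Hochberg adjustment used scipy 1.17.1. On the recovered reads, edgeR 4.0.16 called 355 members higher and 521 lower, and DESeq2 1.42.0 called 346 and 483. For single positions, limma, the t test, edgeR, and DESeq2 were tested on simulated data. The window, replicate-block, and rescaled fits were not. Alternatives are listed in the closing section.

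The members and the lists were chosen with earlier results of these data known. Named positions are the 5 highest of each strain by median, the 6 largest rises and 6 largest falls among called positions with a mean of at least 50 RPM and no overlap, the longest runs, the Northern probe site, and the windows of largest change. Other runs, windows, and nucleotide pairs were named after their values were seen.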

Additional observations from a re-analysis of the deposited data

How the results depend on the processing

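The counts of called positions stayed within 1.5 times of 360 higher and 434 lower with no filter or a minimum mean of 10, pseudocounts of 0.1 and 10, no adjustment, the t test of the methods with and without adjustment, edgeR, DESeq2, and the same median. With the same spacer total they were 42 and 1035. Leaving out each library gave 336 to 364 higher and 381 to 437 lower. Windows called lower numbered 5 with a pseudocount of 10. With the same median 1 window was higher and 8 lower, with the same spacer total 0 and 11, and with 22 windows of 50 positions 7 and 8. Leaving out each library gave 2 or 3 windows higher and 2 to 5 lower, with 5 without WT replicate 2 and 2 without mutant replicate 2. The values do not settle whether replicate numbers pair the samples. Correlations of same-numbered deviations were 0.13, 0.03, and 0.20, and those of differently numbered libraries were -0.16 to 0.03. A fit with a replicate block called 364 positions higher and 456 lower, and 2 windows higher and 5 lower.

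The log2 ratio of the mean was -0.06 to -0.03 without single libraries, -0.02 without the 1% highest positions, and 0.00 by medians. The difference from the central segment was -0.10 by medians and 0.08 to 0.11 without single libraries. The purine share difference, 0.19 percentage points, was -1.03 without the 1% highest positions, -1.77 with positions above the median counted once, and -0.20 to 0.52 without single libraries (-0.20 without WT replicate 3 and -0.07 without mutant replicate 3), so it has no settled direction. The step at the 5′ edge was -1.48 with 20 positions on each side. Differences from the 3′ segment and in the top 1% kept their direction under each alternative run. For the 20 named positions, 251 of 260 alternative values kept direction and call. Position 3623 became lower at an adjusted p below 0.05 in 6, and positions 3728, 3452, and 4251 turned to -0.83, -0.66, and -0.96 with the same spacer total. The causes were not tested. Counting error alone would give 17.3 to 36.7% of the variance between libraries of a strain over these positions, and it weighs most at the lowest members, with 3 to 30 reads.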
